A study of Mus musculus with 12 samples.

Results

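The 9 genes described here, Drd1, Drd2, Adora2a, Ppp1r1b, Rgs9, Pde10a, Penk, Tac1 and Gpr6, are known for their high levels in the projection neurons of the striatum, the large nucleus that lies beneath and behind the prefrontal cortex. They were chosen by name, as a measure of how much striatal RNA each cortical dissection held, and make up 9 of the 55401 genes in the count table. Projection neurons are the most numerous striatal cells and fall into the direct and the indirect pathway. Direct-pathway cells carry the D1 dopamine receptor, which raises cyclic AMP, and make the peptide precursor Tac1. Indirect-pathway cells carry the D2 dopamine receptor, which lowers cyclic AMP, together with the A2a adenosine receptor, Gpr6 and the enkephalin precursor. Both kinds share the signalling proteins DARPP-32, RGS9-2 and PDE10A.

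The libraries were made from poly(A) RNA of prefrontal cortex taken from C57BL/6J males 14 weeks old. Virus had been injected bilaterally by stereotaxic surgery into the dorsomedial part 4 weeks earlier, at 0.1 µL per min for 5 min. All mice had the same surgery and the same standard chow, and all received an adeno-associated virus with green fluorescent protein (GFP) under the ubiquitous CAG promoter. The 12 libraries form 3 groups of 4. The overexpression virus (pAAV-CAG-GFP-P2A-Ttr-WPRE.bgH) also carried Ttr, the gene of the thyroid hormone carrier transthyretin. The knockdown virus also carried a short hairpin RNA against Ttr (Ttr-shRNA-2) driven by the U6 promoter. The control virus (pAAV.1-CAG-GFP) came from Addgene and both Ttr viruses were custom made at the Charité, so vector source and group cannot be told apart. Both Ttr vector names hold a WPRE element and the control vector's name does not. This difference cannot be told apart from group either. The labels give neither the share of cells infected nor a link from libraries to mice, and the spread that the p-values rest on is that between libraries, which may be technical in part.

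Libraries held 19879629 to 37166146 counts. Ttr itself lay at 94.1 to 638 CPM (counts scaled to a common library size with TMM factors) in overexpression, 0.145 to 1.86 CPM in knockdown and 0.491 to 8.49 CPM in control libraries. By edgeR's quasi-likelihood test Ttr was higher in overexpression than in control libraries (log2 change 7.01, adjusted p = 0.0168). The Ttr difference between knockdown and control libraries did not pass that test (log2 change -1.41, adjusted p = 0.936). Its sign rested on control replicate 2, the control at 8.49 CPM: without it the Ttr log2 change was 0.60 (edgeR adjusted p = 0.999), with the other 3 controls at 0.491 to 0.780 CPM. The labelled tissue carried its own markers in every library: Slc17a7, the vesicular glutamate transporter of cortical excitatory neurons, lay at 1422 to 1829 CPM. No library of pure striatum or of cortex known to be free of it was among the samples. The values therefore order libraries by the level of striatal genes and give no percentage of striatal tissue. In bulk RNA, fewer cells of a type and less RNA per cell cannot be told apart, and part of each gene's level may come from cortical cells.

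The start sites of 2 of the genes are shown because a searched motif was found near them. TGACGTCA was searched because dopamine and adenosine receptors of these neurons act through cyclic AMP, whose nuclear effector CREB binds this palindrome. RefSeq promoter windows (GRCm38.p6), running from 250 bases before to 50 bases after the start, were matched for 6 of the 9 genes, with 8 windows in all. Adora2a, Ppp1r1b and Penk were not among them. Capitals mark the motif that was searched, TGACGTCA for Gpr6 and TGACGCA, read on the opposite strand as TGCGTCA, for Tac1. The Gpr6 window is chr10:41072241-41072540 on the minus strand and the Tac1 window is chr6:7554811-7555110 on the plus strand, each printed 5′ to 3′ along its gene.
Gpr6: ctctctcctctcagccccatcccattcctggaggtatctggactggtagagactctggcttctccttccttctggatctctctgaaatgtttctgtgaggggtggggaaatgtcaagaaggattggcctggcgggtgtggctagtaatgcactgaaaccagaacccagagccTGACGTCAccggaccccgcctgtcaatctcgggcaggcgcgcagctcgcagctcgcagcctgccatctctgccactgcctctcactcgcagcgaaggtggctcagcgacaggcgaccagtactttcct
Tac1: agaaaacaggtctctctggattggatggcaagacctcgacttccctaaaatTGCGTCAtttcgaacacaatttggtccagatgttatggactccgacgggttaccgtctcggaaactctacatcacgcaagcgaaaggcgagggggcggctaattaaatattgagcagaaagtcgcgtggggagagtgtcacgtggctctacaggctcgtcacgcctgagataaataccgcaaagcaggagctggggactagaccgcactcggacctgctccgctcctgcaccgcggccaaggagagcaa
On both strands, TGACGTCA stood in 588 of 32851 promoter windows (1.79%) and in 1 of the 8 windows of the striatal genes, that of Gpr6. TGACGCA stood in 695 of 32851 windows (2.12%) and in 1 of the 8, that of Tac1. The motifs differ in letters and did not overlap in these windows. A match is a description of letters and does not show that a factor binds there.

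Of the 4 receptors, the 3 of the indirect pathway varied most between libraries. Drd1, the D1 receptor of direct-pathway neurons (ENSMUSG00000021478, chromosome 13, 54051183 to 54055705, minus strand, GRCm38), had 33.5, 7.66, 14.2 and 47.9 TPM in overexpression replicates 1 to 4, 19.0, 18.3, 41.6 and 7.16 TPM in knockdown replicates 1 to 4, and 12.5, 22.8, 10.9 and 36.9 TPM in control replicates 1 to 4. TPM divides the counts by gene length, so it can be set against other genes of the same library. Overexpression replicate 4 was highest and knockdown replicate 4 lowest, and the groups overlapped throughout. Between the extremes the CPM of Drd1 differed 6.05-fold.

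Drd2, the D2 receptor of indirect-pathway neurons (ENSMUSG00000032259, chromosome 9, 49340627 to 49408177, plus strand), had 20.8, 1.09, 8.93 and 35.9 TPM in overexpression replicates 1 to 4, 9.12, 8.54, 40.4 and 2.05 TPM in knockdown replicates 1 to 4, and 1.74, 14.7, 3.75 and 33.6 TPM in control replicates 1 to 4. Its extremes differed 36.1-fold in CPM, the widest range of the 9 genes. The highest library was in the knockdown group and the lowest in the overexpression group, and the range within a group was 31.7-fold in overexpression, 18.1-fold in knockdown and 19.0-fold in control libraries. The lowest value rested on 36 counts, which gave 1.10 CPM with an exact 95% Poisson interval of 0.770 to 1.52 CPM that covers counting error only. Counting error was therefore small beside the differences between libraries.

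Adora2a, the A2a adenosine receptor that opposes D2 signalling in the same cells (ENSMUSG00000020178, chromosome 10, 75316877 to 75334784, plus strand), had 24.5, 2.78, 11.2 and 50.1 TPM in overexpression replicates 1 to 4, 8.88, 11.2, 47.4 and 3.91 TPM in knockdown replicates 1 to 4, and 2.85, 16.6, 4.79 and 38.1 TPM in control replicates 1 to 4. Overexpression replicate 4 was highest, overexpression replicate 2 and control replicate 1 were lowest, and the CPM range was 17.3-fold. Gpr6, a receptor with high constitutive activity on cyclic AMP in indirect-pathway neurons (ENSMUSG00000046922, chromosome 10, 41069977 to 41072285, minus strand), had 12.9, 0.903, 5.02 and 18.9 TPM in overexpression replicates 1 to 4, 5.14, 6.73, 20.5 and 1.62 TPM in knockdown replicates 1 to 4, and 1.32, 6.48, 2.51 and 17.0 TPM in control replicates 1 to 4. Its range in CPM was 22.1-fold, and its lowest library, overexpression replicate 2, held 21 counts (0.641 CPM, exact 95% Poisson interval 0.397 to 0.981). In all 4 receptors the lowest library of the overexpression group and the lowest of the knockdown group were replicates 2 and 4, and the highest were replicates 4 and 3.

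Both peptide genes had higher mean TPM than each of the 4 receptors. Tac1, the precursor of substance P and neurokinin A (ENSMUSG00000061762, chromosome 6, 7554879 to 7565834, plus strand), had 94.0, 36.4, 47.0 and 190.2 TPM in overexpression replicates 1 to 4, 51.3, 66.9, 114 and 34.1 TPM in knockdown replicates 1 to 4, and 31.7, 62.5, 37.7 and 86.7 TPM in control replicates 1 to 4. Overexpression replicate 4 stood above every other library, and the groups overlapped below it. Penk, the precursor of the enkephalins (ENSMUSG00000045573, chromosome 4, 4133531 to 4138819, minus strand), had 219, 62.9, 102 and 517 TPM in overexpression replicates 1 to 4, 135, 161, 403 and 63.7 TPM in knockdown replicates 1 to 4, and 78.5, 149.5, 91.0 and 331 TPM in control replicates 1 to 4. The 3 libraries highest for Penk were overexpression replicate 4, knockdown replicate 3 and control replicate 4, as they were for the receptors. Tac1 differed 5.69-fold and Penk 7.88-fold between the extreme libraries in CPM. Both peptides are also made by some cortical interneurons, and their cortical share was not tested.

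The intracellular signalling genes followed the same libraries. Ppp1r1b, which encodes DARPP-32, the inhibitor of protein phosphatase 1 that dopamine switches through protein kinase A (ENSMUSG00000061718, chromosome 11, 98348404 to 98357796, plus strand), had 253, 101, 127 and 485 TPM in overexpression replicates 1 to 4, 153, 144, 417 and 67.0 TPM in knockdown replicates 1 to 4, and 95.5, 256, 107 and 399 TPM in control replicates 1 to 4. Its CPM range was 6.56-fold. Overexpression replicate 4 was highest and knockdown replicate 4 lowest. Rgs9, whose striatal form speeds the shut-off of D2 and opioid receptor signals (ENSMUSG00000020599, chromosome 11, 109225355 to 109298129, minus strand), had 59.2, 13.0, 30.3 and 103 TPM in overexpression replicates 1 to 4, 27.9, 31.2, 87.5 and 13.3 TPM in knockdown replicates 1 to 4, and 18.1, 43.1, 19.5 and 84.2 TPM in control replicates 1 to 4. Its CPM range was 7.61-fold, and its pattern over libraries lay closest to the mean of the 9 genes. Pde10a, the phosphodiesterase that breaks down cyclic AMP and cyclic GMP in these neurons (ENSMUSG00000023868, chromosome 17, 8525372 to 8986648, plus strand), had 60.8, 23.4, 42.7 and 97.4 TPM in overexpression replicates 1 to 4, 31.6, 33.9, 91.3 and 21.2 TPM in knockdown replicates 1 to 4, and 27.1, 42.0, 34.5 and 80.2 TPM in control replicates 1 to 4. Its range of 4.15-fold in CPM was the narrowest of the 9. Genes annotated on the opposite strand overlap Pde10a, Ppp1r1b and Penk. The largest of them, the pseudogene Gm15425 within Pde10a, held 1353 counts over all libraries against 48683 for Pde10a, and the strand setting of the counting is not given in the sources used here.

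**Figure D1:**
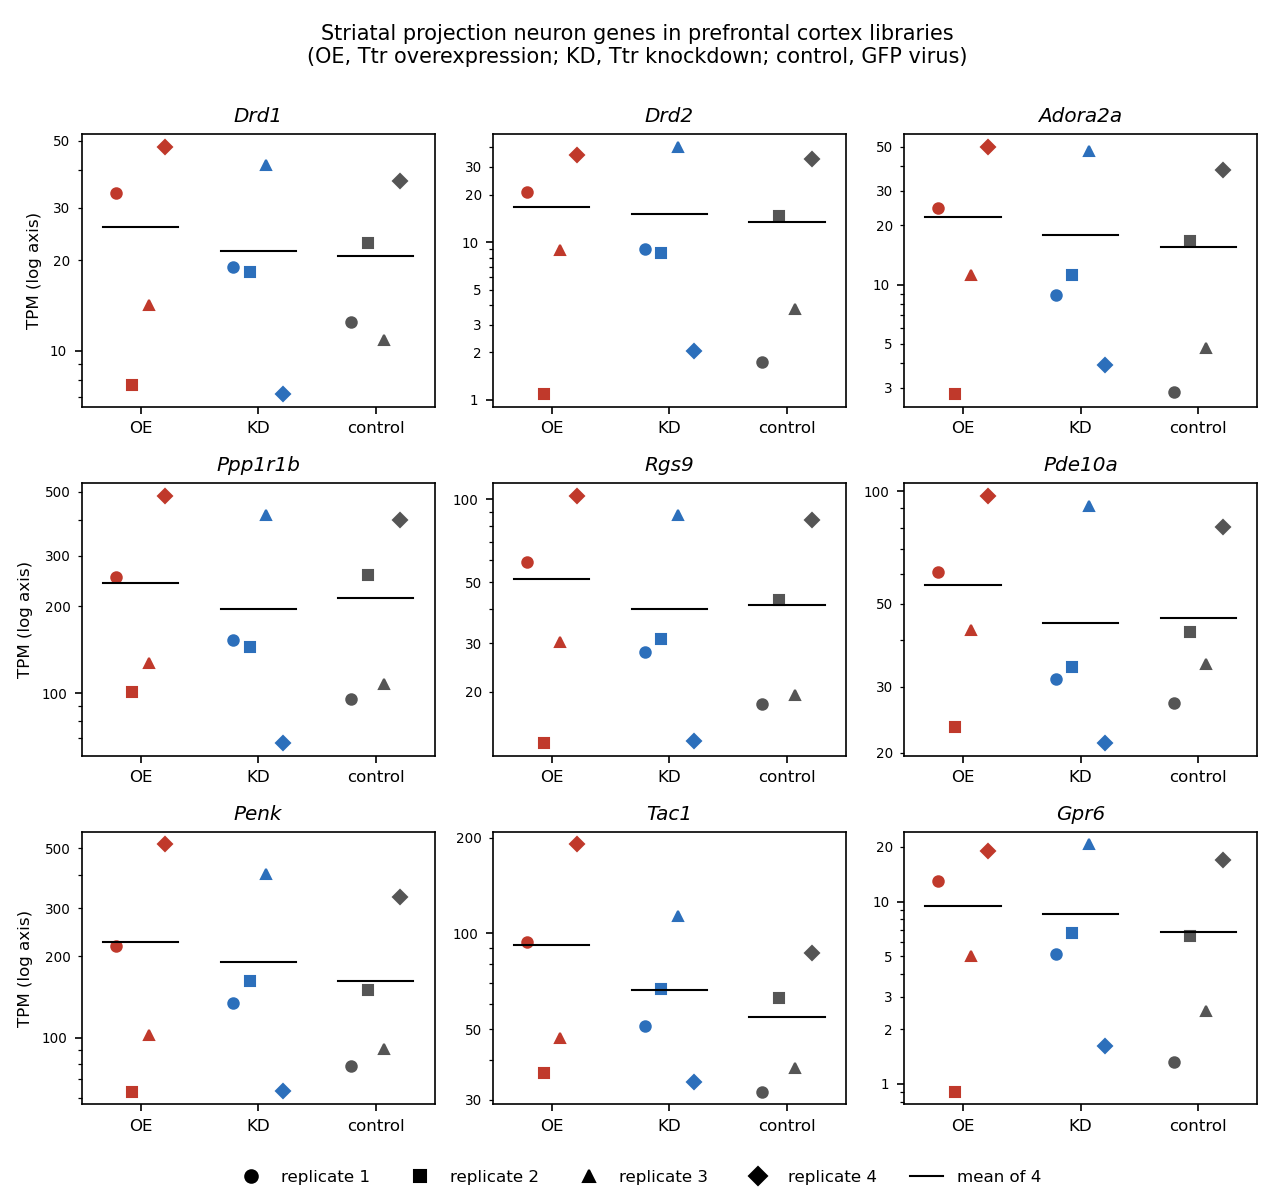
TPM (log axis) of each of the 9 genes in every library, with the overexpression (OE) libraries on the left, knockdown (KD) in the middle and control on the right; marker shape gives the replicate number, which does not pair libraries, and the line is the mean of 4. In each panel the 3 groups overlap, and overexpression replicate 4, knockdown replicate 3 and control replicate 4 are the highest of their groups.

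Averaged over the 12 libraries, Ppp1r1b had the highest level at 217 ± 144 TPM (SD over 12 libraries), followed by Penk at 193 ± 148 TPM. Tac1 followed at 71.0 ± 45.8 TPM, Pde10a at 48.8 ± 26.9 TPM and Rgs9 at 44.2 ± 31.7 TPM. The dopamine and adenosine receptors were lower, with Drd1 at 22.7 ± 13.9 TPM, Adora2a at 18.5 ± 17.4 TPM and Drd2 at 15.1 ± 14.3 TPM. Gpr6 was lowest at 8.26 ± 7.18 TPM. Each pair of neighbours in this order differed by less than the larger of their SDs. Within libraries the order was steadier: Penk exceeded Tac1, Tac1 exceeded Pde10a, Rgs9 exceeded Drd1 and Drd2 exceeded Gpr6 in 12 of 12 libraries. Ppp1r1b exceeded Penk in 10 of 12, Pde10a exceeded Rgs9 in 9, Drd1 exceeded Adora2a in 9 and Adora2a exceeded Drd2 in 11.

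For every one of the 9 genes the SD between libraries of the same group exceeded the range of the 3 group means. On the log2 CPM scale the pooled within-group SD ran from 0.788 for Pde10a to 1.92 for Drd2, against a median of 0.150 over the 18289 genes that passed edgeR's expression filter, as all 9 genes did. Drd2 ranked 4th of 18289 by this SD, Adora2a 20th, Gpr6 21st and Pde10a, the least variable of the 9, 318th. Group membership accounted for 0.473% (Drd2) to 7.97% (Tac1) of each gene's variance, against a median of 15.5% over all genes tested. Within the overexpression group the highest library exceeded the lowest by 3.99-fold to 31.7-fold across the 9 genes, with a median of 7.61-fold. Within the knockdown group this was 3.06-fold to 18.1-fold with a median of 5.80-fold, and within the control group 2.68-fold to 19.0-fold with a median of 4.14-fold.

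The same libraries were high and low for nearly all genes. Within its group, overexpression replicate 4, knockdown replicate 3 and control replicate 4 had the highest CPM for 9 of 9 genes, a pattern shown by 550 of the 18289 genes tested (3.01%). These libraries were also the 3 highest of all 12 for 8 of 9 genes, against 224 of 18289 (1.22%). The exception was Tac1, for which overexpression replicate 1 (43.6 CPM) exceeded control replicate 4 (42.0 CPM). At the low end, overexpression replicate 2 and knockdown replicate 4 were lowest in their groups for 9 of 9 genes. Control replicate 1 was lowest among controls for 8, with control replicate 3 lowest for Drd1. All 3 of these lowest libraries held for 8 of 9 genes, against 493 of 18289 genes tested (2.7%). These libraries were picked out by these same values, so the counts describe them and are no test. Summed over the 9 genes, the level was 685, 234, 380 and 1290.4 CPM in overexpression replicates 1 to 4, 401, 418, 1115 and 214 CPM in knockdown replicates 1 to 4, and 264, 578, 305 and 1010.1 CPM in control replicates 1 to 4.

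A score per library, the mean over the 9 genes of log2 CPM minus the gene's own mean over the 12 libraries, put the same pattern in a single value. It was 0.75, -1.53, -0.26 and 1.60 in overexpression replicates 1 to 4, -0.17, -0.06, 1.44 and -1.30 in knockdown replicates 1 to 4, and -1.22, 0.34, -0.85 and 1.25 in control replicates 1 to 4. Every group held libraries well above and well below 0. The whole range was 3.13 log2 units, and the order of the 12 libraries was identical under the 5 other scalings tried.

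**Figure D2:**
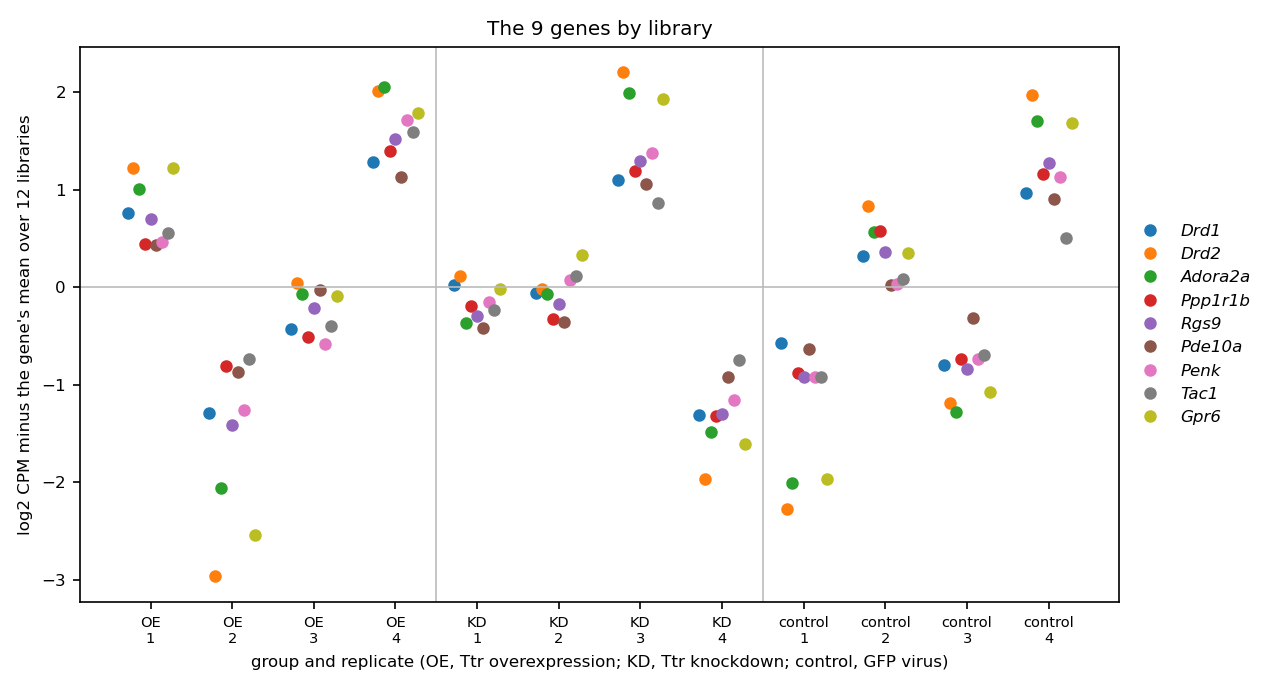
Log2 CPM of each of the 9 genes in each library, minus the gene's mean over the 12 libraries; each colour is a gene, and vertical lines part the overexpression (OE), knockdown (KD) and control groups. All 9 points lie above 0 in overexpression replicate 4, knockdown replicate 3 and control replicate 4. All 9 lie below 0 in overexpression replicate 2, knockdown replicate 4 and control replicate 1. Within overexpression replicate 2 and control replicate 1 the points lie far apart. Drd2, Adora2a and Gpr6 spread farthest from 0, down to Drd2 in overexpression replicate 2.

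Every pair of the 9 genes moved together across libraries. Over 36 pairs and 12 libraries, Pearson's r of log2 CPM ran from 0.897 (Drd2 and Tac1) to 0.993 (Drd2 and Gpr6), with a median of 0.954. Spearman's rho ran from 0.895 (Pde10a and Tac1) to 0.993 (Adora2a and Rgs9). The largest permutation p (two-sided) was 6e-05 for r and 0.00018 for rho, both also after Benjamini-Hochberg adjustment over the 36 pairs, where 1e-05 was the smallest the permutations could give. Without the 2 libraries farthest from the median of the gene on the x axis, r was 0.851 to 0.987. After subtracting each group's mean, r was 0.92 to 0.995. The points share each library's scaling factor and the genes were chosen as markers of related cells, so the pairs are not independent. That choice was made with earlier results of these data known, so the p-values describe the pairs and are no independent evidence. In a principal component analysis of the 18289 genes, the second component (18.7% of the variance) ranked the 9 genes between 3 (Drd2) and 87 (Pde10a) by absolute loading, all with the same sign. On the first component (25.5%) they ranked between 688 and 13714.

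In no comparison did any of the 9 genes pass the test between groups. Against control libraries, 0 of 9 were called in overexpression libraries by edgeR's quasi-likelihood test at an adjusted p of 0.05, with 1 of 18289 genes called in all (0.00547%). The smallest adjusted p among the 9 was 0.860, and 0 of 9 had an unadjusted p below 0.05, against 6.26% of all genes tested. The CPM ranges of the groups overlapped for all 9, leaving 0 of 9 without overlap, against 2.7% of all genes tested. DESeq2 and limma-voom also called 0 of 9. Mean levels were close to each other next to their SDs: Drd1 averaged 34.9 ± 24.4 CPM in overexpression, 29.9 ± 19.3 CPM in knockdown and 29.3 ± 16.8 CPM in control libraries (SD, n = 4 each), and Drd2 averaged 16.2 ± 14.6 CPM in overexpression, 14.9 ± 16.8 CPM in knockdown and 13.7 ± 14.7 CPM in control libraries (SD, n = 4 each). Adora2a averaged 22.0 ± 20.4 CPM in overexpression, 18.1 ± 19.9 CPM in knockdown and 16.2 ± 16.6 CPM in control libraries (SD, n = 4 each). Ppp1r1b averaged 185 ± 132 CPM in overexpression, 153 ± 116 CPM in knockdown and 172 ± 114 CPM in control libraries (SD, n = 4 each).

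Tac1 showed the largest fitted difference. It averaged 43.2 ± 32.5 CPM in overexpression, 32.1 ± 15.6 CPM in knockdown and 26.8 ± 12.2 CPM in control libraries (SD, n = 4 each). The log2 change of Tac1 between overexpression and control libraries was 0.68 (SE 0.49, 95% interval -0.37 to 1.74), with an edgeR adjusted p of 0.860. The other 8 genes had fitted log2 changes of 0.11 (Ppp1r1b) to 0.45 (Adora2a), with SEs of 0.47 to 0.98. For Penk the value was 0.41 (SE 0.65, 95% interval -1.0 to 1.82). For Drd1 it was 0.25 (SE 0.57, 95% interval -0.97 to 1.47) and for Drd2 0.25 (SE 0.98, 95% interval -1.86 to 2.36). All 9 signs were positive and the median was 0.26, against 0.0038 over all genes tested. The sign of the median rested on overexpression replicate 4: the median was -0.33 without that library. Without control replicate 4 it was 0.98. Tac1 stayed positive with any 1 library left out, at 0.056 or more.

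Knockdown against control libraries gave the same count, 0 of 9 called, with 1 of 18289 genes (0.00547%) called in all, and a smallest adjusted p of 0.983 by edgeR. Here 0 of 9 had an unadjusted p below 0.05, against 5.68% of all genes tested, and 0 of 9 had groups without overlap in CPM, against 4.11%. DESeq2 and limma-voom called 0. The fitted log2 changes were positive for 6 genes and negative for Ppp1r1b (-0.16), Pde10a (-0.06) and Rgs9 (-0.04). The largest was that of Gpr6, 0.36 (SE 0.87, 95% interval -1.51 to 2.23). Gpr6 averaged 6.45 ± 5.46 CPM in overexpression, 5.95 ± 5.69 CPM in knockdown and 4.87 ± 5.03 CPM in control libraries (SD, n = 4 each). The median over the 9 genes was 0.18, against 0.0047 over all genes, and it was -0.67 without knockdown replicate 3 and 0.58 without control replicate 4.

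Between overexpression and knockdown libraries 0 of 9 genes were called by edgeR, with 1 of 18289 (0.00547%) called in all and a smallest adjusted p of 0.989. Unadjusted p-values below 0.05 were found for 0 of 9, against 5.1% of all genes tested, and groups without overlap in CPM for 0 of 9, against 2.36%. DESeq2 and limma-voom called 0. Fitted log2 changes ran from 0.05 (Gpr6) to 0.40 (Tac1), with a median of 0.23 against 0.0002 over all genes. Penk averaged 125 ± 113 CPM in overexpression, 109 ± 81.1 CPM in knockdown and 94.1 ± 66.5 CPM in control libraries (SD, n = 4 each), Rgs9 47.7 ± 36.1 CPM in overexpression, 38.0 ± 30.1 CPM in knockdown and 39.9 ± 29.5 CPM in control libraries (SD, n = 4 each), and Pde10a 167 ± 91.8 CPM in overexpression, 136 ± 93.0 CPM in knockdown and 143 ± 71.9 CPM in control libraries (SD, n = 4 each). The median was -0.32 without overexpression replicate 4 and 0.93 without knockdown replicate 3. Over the 3 comparisons the 95% intervals of the 9 genes reached from -2.02 to 2.39 and were widest for the indirect-pathway receptors.

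With overexpression replicate 4, knockdown replicate 3 and control replicate 4 all left out, 0 of 9 genes were called in each comparison. The median log2 change of the 9 was then 0.27 for overexpression against control, -0.04 for knockdown against control and 0.41 for overexpression against knockdown. This exclusion was chosen after the values were seen. The fit of all libraries called 1 of 18289 genes in each comparison, so 0 of 9 says little about these genes.

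**Figure D3:**
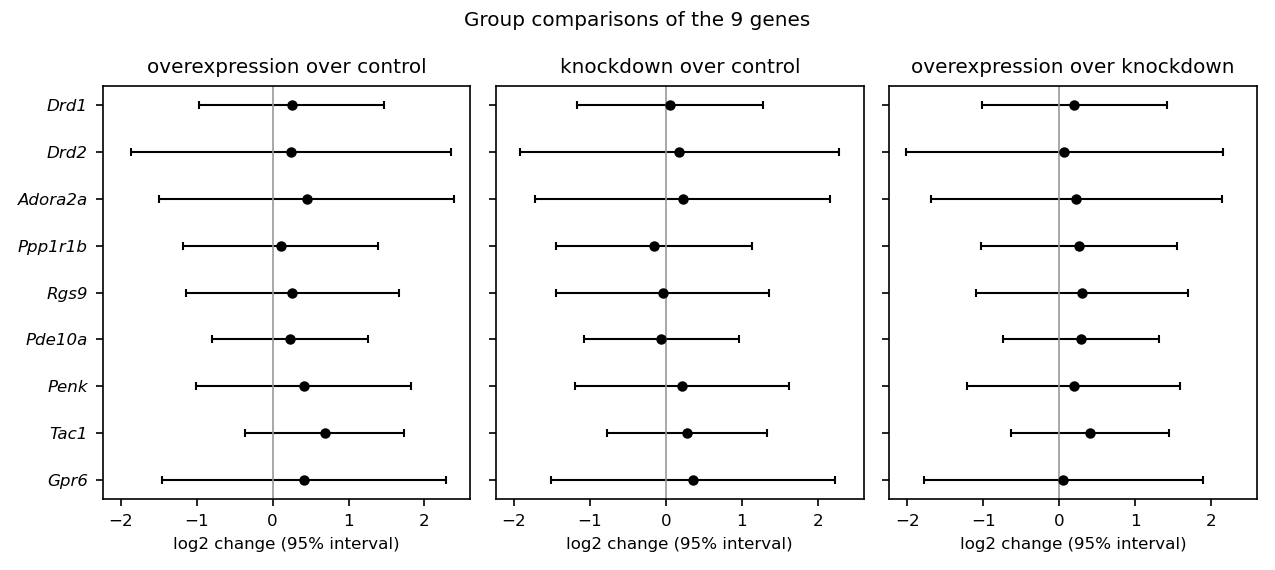
Fitted log2 changes of the 9 genes from edgeR with 95% intervals, for overexpression over control, knockdown over control and overexpression over knockdown. All intervals include 0, and those of Drd2, Adora2a and Gpr6 are the widest.

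The ratios of Drd1 over Drd2 and of Tac1 over Penk, each a direct-pathway over an indirect-pathway gene, were not constant across libraries. Part of each gene's level may come from cortical cells, which was not tested, so the ratios do not measure the balance of the pathways. The TPM ratio of Drd1 over Drd2 was 1.61, 7.04, 1.59 and 1.33 in overexpression replicates 1 to 4, 2.08, 2.14, 1.03 and 3.50 in knockdown replicates 1 to 4, and 7.17, 1.55, 2.90 and 1.10 in control replicates 1 to 4. Drd1 exceeded Drd2 in all 12 libraries. It was largest in overexpression replicate 2 and control replicate 1, the libraries with the lowest Drd2, and closest to 1 in knockdown replicate 3 and control replicate 4, where Drd1 and Drd2 were both high. The ratio of Tac1 over Penk was 0.430, 0.578, 0.460 and 0.368 in overexpression, 0.381, 0.414, 0.282 and 0.535 in knockdown, and 0.404, 0.418, 0.415 and 0.262 in control replicates 1 to 4. Penk exceeded Tac1 in every library, least so in overexpression replicate 2. No difference of either log2 ratio between groups passed an exact permutation test (two-sided, 6 tests, raw p of 0.229 to 0.914, each 0.914 after Benjamini-Hochberg adjustment), which with 4 against 4 can reach 0.0286 at the lowest.

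**Figure D4:**
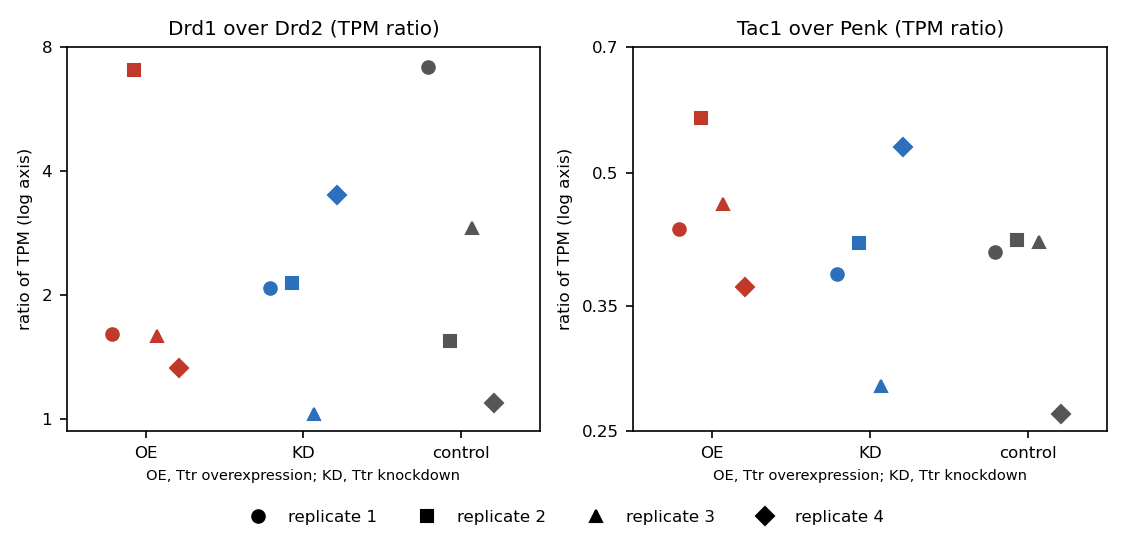
Ratio of TPM (log axes) of Drd1 over Drd2 and of Tac1 over Penk in each overexpression (OE), knockdown (KD) and control library, with marker shape giving the replicate number. The highest Drd1 over Drd2 ratios, 7.04 and 7.17, are those of overexpression replicate 2 and control replicate 1.

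Other genes known from the same neurons were compared over the libraries highest and lowest for the 9 genes. Those libraries were picked by the values of the 9 genes, and all lists were chosen with earlier results of these data known. The counts therefore describe the lists and are no independent evidence. Of 25 further genes enriched in both kinds of projection neuron, all tested, 19 (76%) had overexpression replicate 4, knockdown replicate 3 and control replicate 4 as their 3 highest libraries, against 1.22% of all genes. The 6 others were Meis2, Ankrd63, Foxp1, Ptpn5, Arpp21 and Kcnip2. Of these, Arpp21 spanned 344 to 539 CPM (1.57-fold), highest in overexpression replicate 4 and lowest in control replicate 2. Ptpn5 spanned 167 to 256 CPM (1.53-fold), highest in control replicate 4 and lowest in knockdown replicate 2. Gnal, the G protein that couples D1 and A2a receptors to adenylyl cyclase, had CPM of 283, 214, 223 and 406 in the overexpression group, 249.7, 232, 362 and 234 in the knockdown group and 232, 238, 248 and 286 in the control group, each in the order of replicates 1 to 4. Adcy5, that cyclase, had CPM of 275, 174, 201 and 381 in the overexpression group, 220.2, 194, 366 and 189 in the knockdown group and 186, 254, 182 and 337 in the control group, each in the order of replicates 1 to 4. Both genes peaked in the same 3 libraries but over a narrower range than the 9 genes, and both are known to be made outside the striatum as well. At the low end the pattern was weaker. Overexpression replicate 2, knockdown replicate 4 and control replicate 1 were each lowest in their group for 9 of the 25 (36%), against 2.7% of all genes. In no comparison was any of the 25 called by edgeR. Their median log2 change was 0.16 for overexpression against control (22 positive, 3 negative), 0.13 for knockdown against control (21 positive, 4 negative) and 0.04 for overexpression against knockdown (16 positive, 9 negative).

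Of 8 further direct-pathway genes 1, Slc35d3, had the same 3 highest libraries, and of 3 further indirect-pathway genes 0 did, against 1.22% of all genes. Those libraries were the highest of their groups for 3 of the 8 (37.5%) and 1 of the 3 (33.3%), against 3.01% of all genes. The direct-pathway score was highest in overexpression replicate 4 (0.91) and knockdown replicate 3 (0.71), with control replicate 4 ranked 4th (0.26). It was lowest in overexpression replicate 2 (-0.74). Sfxn1, the direct-pathway gene of highest mean CPM, spanned only 53.2 to 65.8 CPM (1.24-fold). The direct-pathway genes also included Pdyn, the dynorphin precursor, at 24.5 to 70.0 CPM, and Chrm4, the M4 muscarinic receptor, at 14.2 to 24.8 CPM. Isl1, a transcription factor of direct-pathway and cholinergic neurons, had counts of 57, 1, 8 and 98 in the overexpression group, 20, 15, 97 and 1 in the knockdown group and 2, 11, 4 and 30 in the control group, each in the order of replicates 1 to 4. It was at or under 4 counts in 4 libraries and peaked in overexpression replicate 4 and knockdown replicate 3. None of the 11 genes was called by edgeR in any comparison. The log2 changes of the 8 direct-pathway genes were positive for 8 of 8 in overexpression against control (median 0.26), for 8 of 8 in knockdown against control (median 0.32) and for 4 of 8 in overexpression against knockdown (median -0.0062). Both comparisons with control share the control libraries. Unadjusted p-values below 0.05 were found in overexpression against control for Pdyn (log2 change 0.63, edgeR adjusted p = 0.742) and Eya1 (0.28, adjusted p = 0.789), and in knockdown against control for Eya1 (0.30, adjusted p = 0.843) and Chrm4 (0.39, adjusted p = 0.834). Of the 3 indirect-pathway genes, 2 were positive in each comparison, with medians of 0.30 for overexpression against control, 0.13 for knockdown against control and 0.10 for overexpression against knockdown. Plxdc1 (21.9 to 38.8 CPM) was highest in overexpression replicate 2 and Sp9 (3.91 to 13.9 CPM) in knockdown replicate 2. Gprin3 (17.6 to 40.7 CPM) was highest in overexpression replicate 4. Gprin3 had an unadjusted p below 0.05 in overexpression against control (log2 change 0.46, edgeR adjusted p = 0.794). Gpr52, the remaining gene of the indirect-pathway list, was not analysed here.

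The partners of RGS9 and DARPP-32 varied little between libraries. Of 9 such genes, among them the calcineurin subunit Ppp3ca, the RGS9 anchor Rgs7bp, and the phosphatase subunits Ppp1cb and Ppp1ca, 1 (Ppp1ca) had the same 3 highest libraries. Their mean centred log2 CPM stayed between -0.14 and 0.09 in all libraries, against -1.53 to 1.60 for the 9 striatal genes. None was called in any comparison.

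Genes of cholinergic interneurons, which lie among the projection neurons in the striatum and also in the basal forebrain, had the same 3 highest libraries in 5 of the 5 genes tested, with Gbx2 too low to test. Overexpression replicate 2, knockdown replicate 4 and control replicate 1 were each lowest in their group for 2 of the 5 (40%). Slc5a7, the choline transporter, had CPM of 4.85, 1.01, 2.00 and 8.43 in the overexpression group, 2.62, 2.17, 7.69 and 2.19 in the knockdown group and 1.32, 1.87, 1.36 and 4.94 in the control group, each in the order of replicates 1 to 4. Chat, choline acetyltransferase, had counts of 60, 7, 15 and 66 in the overexpression group, 9, 12, 110 and 3 in the knockdown group and 7, 9, 6 and 56 in the control group, each in the order of replicates 1 to 4. In CPM both were highest in the libraries with the highest striatal genes, at low levels in all: the list's summed level was 1.59 to 15.7 CPM in overexpression, 2.65 to 14.9 CPM in knockdown and 1.94 to 9.92 CPM in control libraries. The list's score was 1.05, -1.37, -0.65 and 1.80 in overexpression, -0.22, -0.09, 1.82 and -1.09 in knockdown, and -1.23, -0.17, -1.09 and 1.24 in control replicates 1 to 4. None of the 5 was called in any comparison, with medians of 0.78, 0.69 and 0.09 on the log2 scale for overexpression against control, knockdown against control and overexpression against knockdown.

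Lists of cortical excitatory, GABA, glial, vascular, choroid plexus and dopamine cells held at most 1 gene each with the same 3 highest libraries. Of 13 genes of cortical excitatory neurons 0 had the same 3 highest libraries, and their score stayed between -0.21 and 0.13. Their summed level was 2163 to 2506 CPM in overexpression, 2137 to 2505 CPM in knockdown and 2376 to 2684 CPM in control libraries. Of 9 genes of GABA neurons 0 did, although Gad2 and Slc32a1 were highest within each group in those libraries. Of 8 myelin genes 0 did, with myelin scores from -0.87 in knockdown replicate 4 to 0.97 in control replicate 2. Mural and meningeal genes, of which 0 of 6 did, had scores of 0.25 to 1.23 in overexpression, -0.35 to 0.20 in knockdown and -0.96 to -0.19 in control libraries. DESeq2 called 5 of the 6 between overexpression and control libraries, where edgeR called 0. Choroid plexus genes, of which 1 of the 4 tested did (Clic6), had their highest score, 1.30, in overexpression replicate 4, their second highest, 0.64, in knockdown replicate 3, and their lowest, -1.03, in control replicate 4. Astrocyte and microglia genes had 0 of 4 each, while the microglia score was highest in overexpression replicate 4 (0.44), followed by knockdown replicate 4 (0.40). Th, the rate-limiting enzyme of dopamine synthesis, reached 19.7 CPM in knockdown replicate 2, against 1.32 to 5.99 CPM in the other 11 libraries, and 0 of the 3 dopamine neuron genes tested had the pattern. Over all the lists other than the 9 genes, edgeR called 0 in each comparison. Of the 101 genes tested in them, unadjusted p-values below 0.05 were found for 11 (10.9%) in overexpression against control, 11 (10.9%) in knockdown against control and 6 (5.94%) in overexpression against knockdown. The shares over all genes tested were 6.26%, 5.68% and 5.1% in the same order. Limma-voom called 0 in each, and DESeq2 called 0 in both comparisons with knockdown libraries. The part of these cell types in the levels of the 9 genes was not tested.

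**Figure D5:**
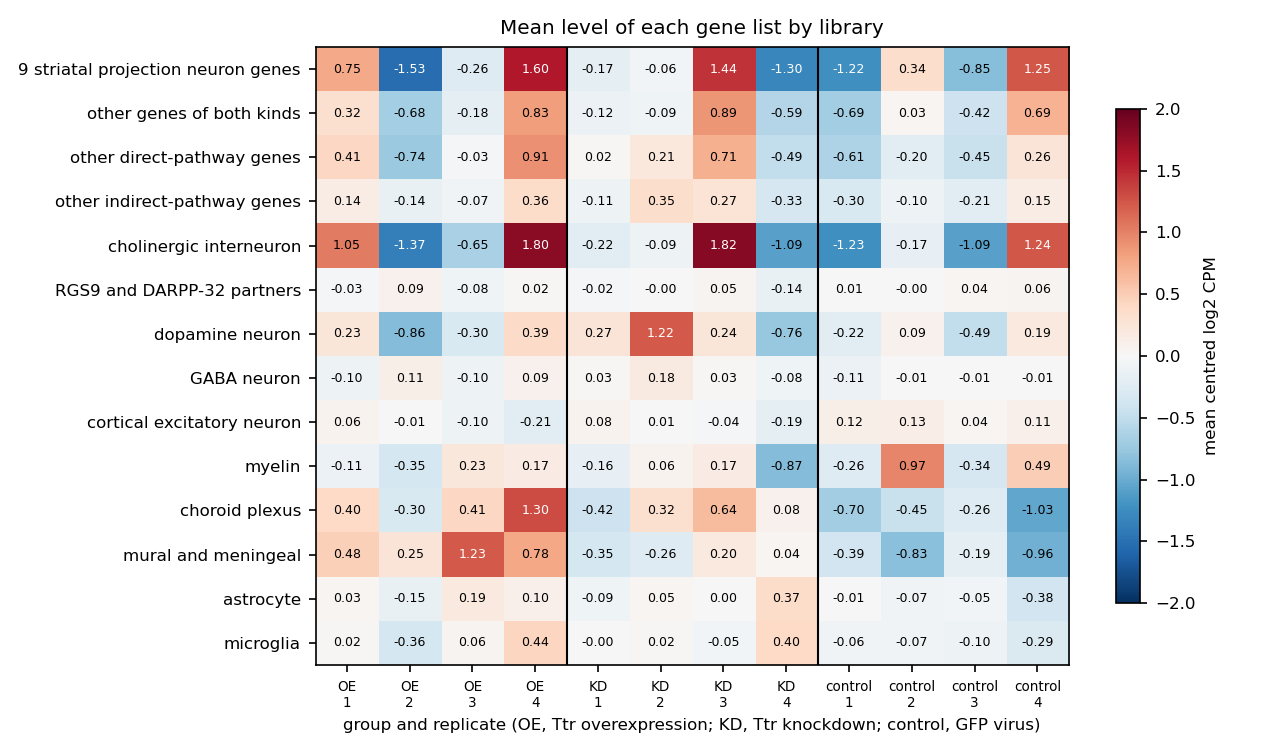
Mean centred log2 CPM of each gene list (rows) in each library (columns; OE, overexpression; KD, knockdown), with the value in each cell and colour from low (blue) to high (red). The rows of the 9 genes, of other genes of both kinds of projection neuron and of cholinergic interneurons are red in overexpression replicate 4, knockdown replicate 3 and control replicate 4, while the row of cortical excitatory neurons stays between -0.21 and 0.13.

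The genes whose pattern over the 12 libraries lay closest to the mean of the 9 were sought by the root mean square difference in centred log2 CPM. The 158 candidates varied at least as much as that mean, whose SD was 1.10 log2 units. Drd1, Ppp1r1b, Rgs9, Pde10a, Penk and Tac1 themselves lay below this floor, at SDs of 0.727 (Pde10a) to 1.03 (Rgs9). Striatal genes that vary as little as these could therefore not be named. The closest were Ano2 (0.29), Lrrc10b (0.33), Cd4 (0.35), Ptprv (0.36), C130060K24Rik (0.39), Ptpn7 (0.41), Syndig1l (0.43), Ido1 (0.48), Lhx8 (0.49) and Serpina9 (0.50). The candidates' median was 1.61, and the 9 genes themselves lay between 0.12 (Rgs9) and 0.66 (Drd2). Syndig1l and Ido1 were on the list of genes of both kinds of projection neuron and Lhx8 on the cholinergic list. Lrrc10b spanned 2.48 to 34.4 CPM and Syndig1l 2.75 to 48.1 CPM. The others were lower, with C130060K24Rik and Lhx8 at 0 counts in at least 1 library. None of the 10 was called in any comparison.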

How the data were processed

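For the 12 libraries the authors deposited raw counts of each gene, TPM values and variance-stabilised log2 values. The deposited TPM equalled counts divided by 1 length per gene, within 0.01 log2 units for 100% of the 18289 genes compared. Per the submitters' processing notes, the tools were featureCounts, UMI-tools, DESeq2 and bcl2fastq (version 2.20.0.422), without stated roles, and the build was GRCm38 (mm10). The aligner is not given in the sources used here, nor is the handling of molecular identifiers. Libraries were directional and poly(A) selected, per the labels' protocols. Gene identifiers were matched to symbols for 55141 of 55401.

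Counts were tested with edgeR 4.0.16 (quasi-likelihood, TMM, filterByExpr with a minimum count of 10) in R 4.3.3, with all libraries in 1 fit of 3 group means and Benjamini-Hochberg adjustment over 18289 genes at a threshold of 0.05. The common biological coefficient of variation was 0.126. The procedure was tested on simulated data. CPM used all counts with TMM factors, and log2 CPM a prior count of 2. No replicate pair agreed within sampling noise (chi-square per degree of freedom 5.38 to 28.3 over 18 pairs). Alternatives used DESeq2 1.42.0, limma 3.58.1 (TPM with pseudocounts of 0.1 and 1), other scalings, no filter, 2 groups only, the replicate number as a block and each library left out; for Ttr, leaving out each library was added after the data were seen.

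Positions are from GENCODE vM21 (GRCm38) and promoters from RefSeq (GRCm38.p6). The 9 genes and all lists were chosen with earlier results of these data known. The text names all 9 genes, the 10 closest genes and, of each other list, genes that pass the test and up to 4 with the highest mean CPM. Isl1, Slc35d3, Th, Gbx2, Clic6 and the direct-pathway, indirect-pathway and GABA genes singled out by library or unadjusted p were named after their values were seen, as were the genes outside the shared library pattern.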

Additional observations from a re-analysis of the deposited data

Results flagged for a closer look

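Within groups of 4, a library was marked where its gap to the nearest other exceeded Dixon's 95% critical share of the group's range. Of 69 groups tested, 4 were marked, and chance marks about 1 in 20 groups. Pde10a at 274 CPM and Adora2a at 47.6 CPM in knockdown replicate 3 stood above the other knockdown libraries, which lay at 69.4 to 103 CPM for Pde10a and 4.28 to 11.4 CPM for Adora2a. The microglia list scored 0.405 in knockdown replicate 4, above the other knockdown libraries. The GABA neuron list scored -0.115 in control replicate 1, below the other control libraries.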

How the results depend on the processing

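None of the 9 genes was called under any of the alternatives, 11 besides leaving out each library, and the smallest adjusted p among 621 refitted values was 0.441. Signs were not stable: 72 of the 621 values had the opposite sign to the reported one, 56 of them with 1 library left out. For overexpression against control, the fitted log2 changes with 1 library left out lay at -0.23 to 0.67 for Drd1, -0.44 to 1.23 for Drd2, -0.33 to 1.37 for Adora2a, -0.16 to 1.37 for Gpr6, 0.056 to 0.98 for Tac1, -0.41 to 1.00 for Penk, -0.48 to 0.58 for Ppp1r1b, -0.33 to 0.85 for Rgs9 and -0.18 to 0.63 for Pde10a. Their median lay between -0.33 and 0.98. For knockdown against control, the fitted log2 changes with 1 library left out lay at -0.48 to 0.47 for Drd1, -1.02 to 1.15 for Drd2, -0.94 to 1.14 for Adora2a, -0.57 to 1.32 for Gpr6, -0.10 to 0.58 for Tac1, -0.44 to 0.81 for Penk, -0.82 to 0.32 for Ppp1r1b, -0.77 to 0.55 for Rgs9 and -0.67 to 0.34 for Pde10a. Their median lay between -0.67 and 0.58. For overexpression against knockdown, the fitted log2 changes with 1 library left out lay at -0.28 to 0.73 for Drd1, -0.62 to 1.26 for Drd2, -0.54 to 1.38 for Adora2a, -0.52 to 0.98 for Gpr6, -0.22 to 0.78 for Tac1, -0.62 to 0.84 for Penk, -0.32 to 0.93 for Ppp1r1b, -0.28 to 1.02 for Rgs9 and -0.11 to 0.89 for Pde10a. Their median lay between -0.32 and 0.93. The members' count of calls stayed 0 in each. By limma-voom the log2 change between overexpression and knockdown was -0.092 for Adora2a, -0.37 for Drd2 and -0.38 for Gpr6, and that of Rgs9 between knockdown and control was 0.025. For Drd1 between knockdown and control it was -0.034 on TPM with a pseudocount of 0.1, -0.027 with a pseudocount of 1 and -0.018 on the variance-stabilised values. Replicate numbers did not pair the libraries: deviations of same-numbered libraries correlated between -0.34 and 0.16 over 12 pairs, 2 of them over 0.1, and 1 of 12 libraries correlated best with its own number. With the replicate number as a block, the log2 change between overexpression and knockdown was -0.00046 for Drd1, -0.15 for Drd2, -0.19 for Gpr6 and -0.15 for Penk, and that of Rgs9 between knockdown and control was 0.11, with 0 genes called. With the 3 highest libraries left out, chosen after seeing the data, knockdown against control gave -0.011 for Adora2a, -0.062 for Drd1 and -0.040 for Drd2, and overexpression against control gave -0.0093 for Ppp1r1b. Among genes of the other lists, 0 were called for overexpression against control in the reported fit, against 5 without the filter on low counts and 5 by DESeq2, which were in both cases Acta2, Tagln, Myh11, Slc6a13 and Igfbp2 of the mural and meningeal list, and 0 to 1 with a library left out (Tagln, without overexpression replicate 2). The cause was not tested. Over all genes DESeq2 called 40 for overexpression against control, 42 for knockdown against control and 4 for overexpression against knockdown, edgeR without the filter 20, 22 and 1, and limma-voom 0, 1 and 0, where the reported fit called 1 in each.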
